A study of Mus musculus with 4 samples.

Results

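Expression of genes of the Elavl, Rbpms, Nova and Rbfox families, which encode RNA-binding proteins of neurons, was examined by RNA sequencing of retinae from mouse embryos at E13.5 (E for embryonic day). The members were chosen by gene name as Elavl2, Elavl3, Elavl4, Rbpms, Rbpms2, Nova1, Nova2, Rbfox1, Rbfox2 and Rbfox3, and are 10 of the 25239 genes listed in each library. The series holds 2 control libraries and 2 libraries labelled Isl1cKO, a conditional knockout of Isl1, the gene for a LIM-homeodomain transcription factor of newborn retinal ganglion cells. The question of the series was which transcripts of the retina differ after loss of Isl1. The Cre driver, the floxed allele, the strain, the exact genotype of the controls and the number of embryos per library are not given in the sources used here. Where replicates are not separate animals, the p-values measure technical spread only.

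ELAV-like proteins bind U-rich and AU-rich stretches of mRNA, most often in the 3′ untranslated region, and affect mRNA stability, splicing and translation. Elavl2, Elavl3 and Elavl4 (HuB, HuC and HuD) are made mainly in neurons. NOVA proteins bind YCAY clusters and RBFOX proteins bind GCAUG to regulate alternative splicing in neurons, and Rbfox3 encodes the neuronal marker NeuN. RBPMS is a widely used marker of retinal ganglion cells, the projection neurons of the retina and the first neurons to form there, and RBPMS2 is its close paralog.

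The targeted gene was not lower in the libraries labelled Isl1cKO. Isl1 stood at 242 and 201 TPM (a level corrected for transcript length, with the same total in each library) in control replicates 1 and 2, with 321 and 223 TPM in replicates 1 and 2 of Isl1cKO. The ranges overlapped and no per-exon values were used, so each direction below rests on the labels. Depth, derived from coverage and FPKM, was 12.6 to 14.3 gigabases of aligned sequence per library, lowest in Isl1cKO replicate 2. That library also stood apart in its red blood cell genes, which summed to 203 TPM against 1413 in Isl1cKO replicate 1 and 2895 and 4149 in the controls.

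All 10 members passed the filter of 1 TPM in at least 2 libraries, and none passed the test between the groups. Elavl4 and Rbpms stood lowest relative to control, each at under 48% of its control mean, while their paralogs Elavl3, Elavl2 and Rbpms2 stood at 83.3% to 94.1%. In limma, 0 of 10 members had an adjusted p-value under 0.05 over the 13984 tested genes, where 0.493% of tested genes did, 65 of them lower and 4 higher. The unadjusted p-value was under 0.05 in 4 members, all lower, namely Elavl4, Rbpms, Rbfox1 and Rbfox2, against 8.92% of tested genes that were lower at this threshold. The log2 fold change, taken throughout on log2(TPM + 1), which understates the change of low genes, was below 0 in 10 of 10 members and in 63.8% of tested genes. The share of tested genes depended on the scaling, at 50.1% with FPKM, 49.6% with median-ratio, 50.9% with upper-quartile and 44.3% with quantile scaling, while 10 of 10 members were below 0 under each. Its median was -0.30 over the members and -0.05 over all tested genes. The members' median was -0.19 without control replicate 1 and also without Isl1cKO replicate 2, where the median of all tested genes was -0.04 and -0.02 and, without the latter, 9 of 10 members were below 0.

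**Figure D1:**
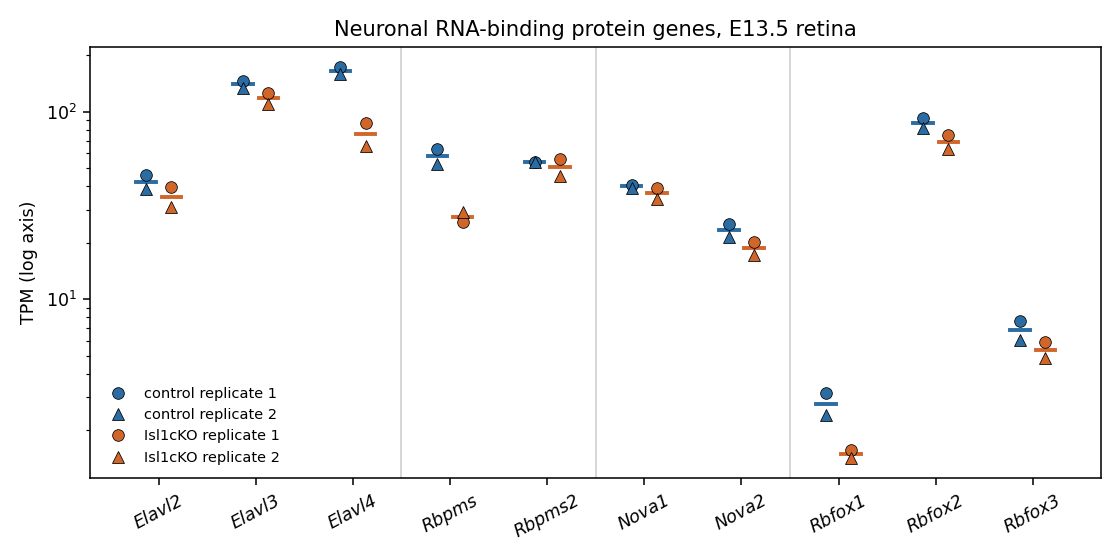
Level of each member in TPM (log axis) in the 4 libraries, with blue for control, orange for Isl1cKO, circles for replicate 1, triangles for replicate 2 and bars for group means. Elavl4 and Rbpms show the widest gaps between the groups, and Elavl2, Rbpms2 and Nova1 overlap.

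Among the ELAV-like genes, Elavl4 (mm10, chromosome 4, 110203737 to 110351911, minus strand) was the most abundant in control and the one that differed most. Control replicates 1 and 2 held 173 and 158 TPM of Elavl4, against 86.9 and 65.9 TPM in replicates 1 and 2 of Isl1cKO. Both Isl1cKO values lay below both controls, and the gap between the groups was wider than that between replicates. The control mean was 166 ± 10.7 TPM against 76.4 ± 14.8 TPM for Isl1cKO (SD, n = 2 each), a log2 fold change of -1.12 (SE 0.16, 95% interval -1.54 to -0.70). The adjusted p-value in limma was 0.112, short of the threshold, and Elavl4 passed on FPKM (0.0428) and with a mean-variance trend (0.0271). A log2 fold change as low or lower was found in 1.12% of tested genes, and one of -1 or less in 1.48%, which 2 of 10 members had.

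Elavl3 (chromosome 9, 22015005 to 22052023, minus strand), a pan-neuronal member of the family, stood at 147 and 133 TPM in control and at 126 and 110 TPM in Isl1cKO. Its groups did not overlap, but the gap between their nearest values was smaller than that between the replicates of either group. Its log2 fold change was -0.25 (95% interval -0.53 to 0.04), with an adjusted p-value of 0.476. Elavl2 (chromosome 4, 91250689 to 91400002, minus strand) was at 45.9 and 38.8 TPM in control and at 39.5 and 31.0 TPM in Isl1cKO, and its groups overlapped. Its log2 fold change was -0.26 (95% interval -0.68 to 0.16), with an adjusted p-value of 0.600. Leaving out a library moved it from -0.43 (without Isl1cKO replicate 1) to -0.09 (without Isl1cKO replicate 2), with -0.14 without control replicate 1. Elavl3 was at -0.15 without Isl1cKO replicate 2.

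The make-up of the ELAV-like mRNA pool therefore differed between the libraries of the groups. Elavl4 made up 47.4% and 47.9% of the summed TPM of the 3 genes in control and 34.5% and 31.8% in Isl1cKO. Elavl3 made up 40.1% and 40.3% in control and 49.8% and 53.2% in Isl1cKO. Elavl4 was thus the leading ELAV-like mRNA in both controls and Elavl3 in both Isl1cKO libraries. The summed level was 348 ± 25.1 TPM in control against 230 ± 31.6 TPM in Isl1cKO (SD, n = 2 each). Of the difference of 119 TPM, Elavl4 carried 89.5, Elavl3 22.0 and Elavl2 7.07 TPM.

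Rbpms (chromosome 8, 33782644 to 33929863, minus strand), the ganglion cell marker, stood at 63.3 and 52.8 TPM in control and at 26.0 and 29.3 TPM in Isl1cKO. Both Isl1cKO values were at most 55.4% of the lower control, and this was the only member that stood higher in Isl1cKO replicate 2 than in Isl1cKO replicate 1. The means were 58.0 ± 7.45 and 27.6 ± 2.32 TPM (SD, n = 2 each), with a log2 fold change of -1.04 (SE 0.13, 95% interval -1.38 to -0.70). Its adjusted p-value in limma was 0.0842, the lowest among the members and short of the threshold, which it passed with a mean-variance trend (0.0211). Rbpms2 (chromosome 9, 65630582 to 65660518, plus strand) was at 54.1 and 53.9 TPM in control and at 56.3 and 45.4 TPM in Isl1cKO. The controls lay between the Isl1cKO values, and the log2 fold change was -0.09 (95% interval -0.43 to 0.24), with an adjusted p-value of 0.816. The direction of Rbpms2 turned without Isl1cKO replicate 2, at 0.06, and it was at -0.25 without Isl1cKO replicate 1.

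**Figure D2:**
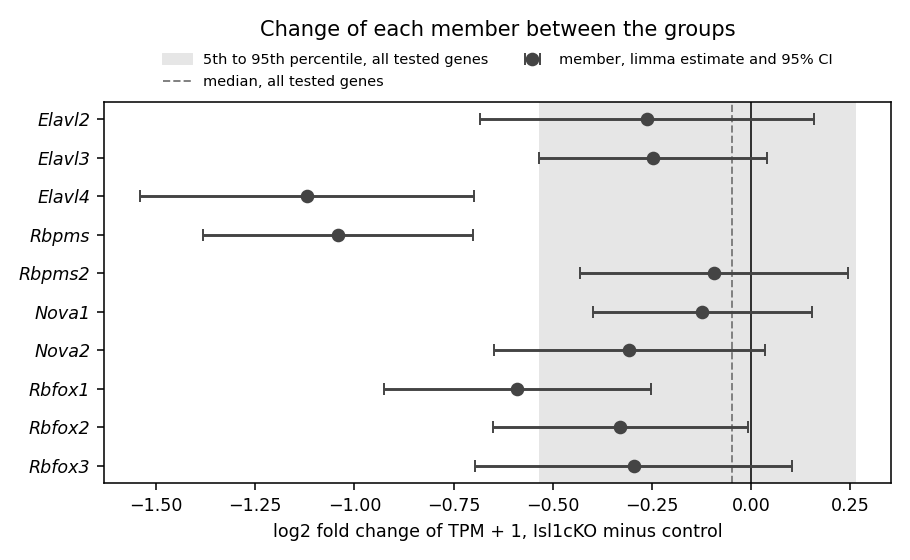
Log2 fold change of TPM + 1 (Isl1cKO minus control) of each member with its 95% interval from limma, beside the 5th to 95th percentile of all tested genes (grey) and their median (dashed). The intervals of Elavl4 and Rbpms end at -0.70, and those of Elavl2, Elavl3, Rbpms2, Nova1, Nova2 and Rbfox3 reach above 0.

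The NOVA genes lay closer to their control levels. Nova1 (chromosome 12, 46697898 to 46818767, minus strand) was at 40.8 and 39.3 TPM in control and at 39.4 and 34.1 TPM in Isl1cKO, with overlapping groups. Its log2 fold change was -0.12 (95% interval -0.40 to 0.15). Nova2 (chromosome 7, 18925888 to 18965319, plus strand), whose protein is known mainly from the neocortex, stood at 25.3 and 21.4 TPM in control and at 20.1 and 17.3 TPM in Isl1cKO. Both Isl1cKO values lay below the controls, with a gap between the nearest values smaller than that between the replicates of either group, and the log2 fold change was -0.31 (95% interval -0.65 to 0.04). The adjusted p-values in limma were 0.714 for Nova1 and 0.456 for Nova2. Nova1 stood at -0.22 without Isl1cKO replicate 1 and at -0.02 without Isl1cKO replicate 2, and Nova2 at -0.19 without control replicate 1 and at -0.20 without Isl1cKO replicate 2.

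Rbfox2 (chromosome 15, 77078990 to 77307053, minus strand), the RBFOX gene that is active most widely outside neurons, made up 89.5% to 91.1% of the family's summed TPM in each library. It stood at 92.1 and 82.0 TPM in control and at 74.7 and 63.7 TPM in Isl1cKO. The groups did not overlap, but the gap between their nearest values was smaller than that between the replicates of either group. The log2 fold change was -0.33 (95% interval -0.65 to -0.01), with an adjusted p-value of 0.404. Rbfox2 overlaps 1700109K24Rik on the other strand, which was listed at up to 4.18 TPM, and reads in the overlap may have gone to either gene. Rbfox3 (chromosome 11, 118489760 to 118911597, minus strand) was low, at 7.66 and 6.05 TPM in control and at 5.94 and 4.84 TPM in Isl1cKO. Its log2 fold change was -0.30 (95% interval -0.70 to 0.10), with an adjusted p-value of 0.531. It was -0.15 without control replicate 1, -0.44 without control replicate 2 and -0.17 without Isl1cKO replicate 2, and Rbfox2 was at -0.21 without the last.

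Rbfox1 (chromosome 16, 5884793 to 7412480, plus strand) was the lowest member, at 3.15 and 2.40 TPM in control and at 1.58 and 1.42 TPM in Isl1cKO. Its log2 fold change was -0.59 (95% interval -0.93 to -0.25), with an adjusted p-value of 0.220. Its TPM was out of proportion to its sequence coverage. The FPKM of Rbfox1 implied a per-base coverage 37.4 to 41.1 times the coverage listed for it, which was 0.187 to 0.417. In the other members this factor was at most 2.29, and it was 10 or more in 1.16% to 1.19% of tested genes. On coverage scaled to TPM, Rbfox1 stood at 0.0796 and 0.0608 in control and at 0.0384 and 0.0378 in Isl1cKO. Both Isl1cKO values lay below both controls there too. The log2 fold change on that scale was -0.04, since 1 was added to values this small, so it does not show the size of the difference. As coverage and TPM differ in level, the TPM values of Rbfox1 are uncertain.

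Levels were set in order, as means in TPM, which is scaled to transcript length. In control the order was Elavl4, Elavl3, Rbfox2, Rbpms, Rbpms2, Elavl2, Nova1, Nova2, Rbfox3 and Rbfox1. Of these neighbours, Rbpms and Rbpms2 overlapped in their replicates, as did Elavl2 and Nova1. In Isl1cKO the order was Elavl3, Elavl4, Rbfox2, Rbpms2, Nova1, Elavl2, Rbpms, Nova2, Rbfox3 and Rbfox1. Here Elavl4 overlapped with Rbfox2, and Nova1 with Elavl2. The order depends on the unit. On coverage scaled to TPM, Rbpms stood at 27.7 and 23.6 in control, below Rbpms2 (54.1 and 53.9) and Elavl2 (38.2 and 33.6), and in both Isl1cKO libraries it lay below Nova2 (20.1 and 17.3). There Elavl4 (151 and 138) and Elavl3 (147 and 133) overlapped in control, while in Isl1cKO Elavl4 (76.0 and 57.7) lay below Elavl3 (126 and 110).

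Ratios between paralogs within a library, which depend little on how libraries are scaled, were compared next. The log2 ratio of Elavl4 to Elavl3 was 0.24 and 0.25 in control and -0.53 and -0.73 in Isl1cKO, a difference of -0.87. That of Rbpms to Rbpms2 was 0.22 and -0.03 in control and -1.09 and -0.62 in Isl1cKO, a difference of -0.95. The ratio of Elavl2 to Elavl3 was -1.65 and -1.75 in control and -1.64 and -1.80 in Isl1cKO, with overlapping groups, and that of Rbfox3 to Rbfox2 also overlapped. Nova1 to Nova2 differed by 0.18, Elavl2 to Elavl4 by 0.86, Rbfox1 to Rbfox2 by -0.26 and Rbfox1 to Rbfox3 by -0.29, without overlap. With 2 libraries against 2, the smallest p-value of the exact two-sided permutation test is 0.333. It was reached by the 6 of 8 pairs without overlap (0.444 adjusted over the 8), and no pair could pass a threshold of 0.05. The pairs share genes, among them Elavl4 and Rbfox1, and so are not independent. No share of separated ratios over other pairs of genes was computed, so the count of 6 is not a result about paralogs. For Nova1 to Nova2 and Rbfox1 to Rbfox2 the nearest values of the groups lay closer together than the replicates of a group. Nova1 to Nova2 differed by 0.10 without control replicate 1 and by 0.27 without control replicate 2. On coverage scaled to TPM both ratios with Rbfox1 turned in sign, to 0.25 and 0.30. There 1 was added to Rbfox1 values of 0.0378 to 0.0796, so these ratios mostly follow Rbfox2 and Rbfox3. The turn therefore does not show another direction for Rbfox1. Summed over each family, log2(TPM + 1) differed by -0.60 for the ELAV-like genes, -0.51 for the Rbpms pair, -0.19 for the NOVA pair and -0.34 for the RBFOX genes. Each sum differed without overlap and had an exact permutation p-value of 0.333. Among single tested genes 30.0% were lower without overlap, and no such share was computed for sums of genes. The NOVA sum differed by -0.30 without Isl1cKO replicate 1 and by -0.09 without Isl1cKO replicate 2, and the RBFOX sum by -0.23 without the latter.

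**Figure D3:**
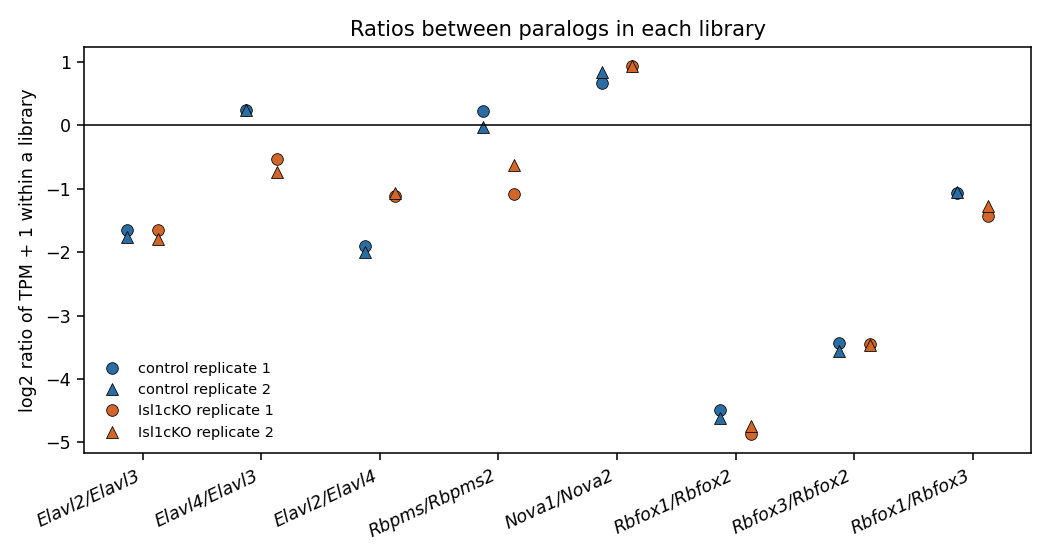
Log2 ratio of TPM + 1 between paralogs in each library, with colours and symbols as in the plot of levels. Elavl4 to Elavl3 and Rbpms to Rbpms2 lie lower in both Isl1cKO libraries, by 0.87 and 0.95 on average, whereas the groups overlap for Elavl2 to Elavl3.

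Promoter windows of the ELAV-like genes are shown because Elavl4 and Elavl3 differ in their values. RefSeq windows (GRCm38.p6, 250 bases before to 50 after a start) were found for 8 of the 10 members, and not for Rbpms and Rbfox2. The first Elavl4 window, at chr4:110351862-110352161 on the minus strand, starts where the gene does in the authors' tables. RefSeq lists 3 more windows within the gene, of which the one printed lies 64384 bases further in, at chr4:110287478-110287777. Another, at 64400 bases, overlaps it, and the last, at 65077 bases, does not. The Elavl3 window is at chr9:22051974-22052273, minus strand. Capitals mark TAAT on either strand, the core bound by many homeodomain proteins, and CANNTG, the E-box bound by basic helix-loop-helix proteins.
Elavl4 first start: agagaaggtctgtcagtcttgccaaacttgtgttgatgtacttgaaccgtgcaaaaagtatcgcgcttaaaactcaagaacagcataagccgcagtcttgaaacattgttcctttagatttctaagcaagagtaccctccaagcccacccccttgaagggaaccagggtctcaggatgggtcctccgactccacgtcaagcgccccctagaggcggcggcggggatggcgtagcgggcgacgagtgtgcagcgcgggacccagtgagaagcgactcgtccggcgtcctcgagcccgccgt
Elavl4 inner start: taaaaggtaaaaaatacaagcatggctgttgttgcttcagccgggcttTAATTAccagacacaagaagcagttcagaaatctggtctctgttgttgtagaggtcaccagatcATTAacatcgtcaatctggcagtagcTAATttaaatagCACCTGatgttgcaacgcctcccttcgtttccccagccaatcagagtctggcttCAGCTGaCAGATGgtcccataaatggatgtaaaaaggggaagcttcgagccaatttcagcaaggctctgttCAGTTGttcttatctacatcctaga
Elavl3 start: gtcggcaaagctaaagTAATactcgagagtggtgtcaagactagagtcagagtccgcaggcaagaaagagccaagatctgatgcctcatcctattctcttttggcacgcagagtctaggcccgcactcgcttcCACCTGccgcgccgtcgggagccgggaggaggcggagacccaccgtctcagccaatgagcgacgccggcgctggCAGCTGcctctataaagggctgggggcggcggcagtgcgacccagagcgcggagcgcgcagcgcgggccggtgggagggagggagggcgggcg
The printed inner Elavl4 window held TAAT at 4 places, 2 of which overlap, and CANNTG at 4, as did the one that overlaps it, while the last held 2 and 1. The Elavl3 window held 1 and 2, and the first Elavl4 window held neither. Of the 6 windows of Elavl2, which are not printed, all held CANNTG at 1 place and 1 window held TAAT, at 3 places. Of all windows in the table, TAAT stood in 58.0% and CANNTG in 72.3% (n = 32851 windows), so their presence is common. The bases G and C made up 57.0% of the first Elavl4 window, 43.7% of the printed inner one and 65.3% of the Elavl3 window. The median of all windows was 52.7%. The number of places per window was not set against all windows, and the part of base composition in it was not tested. The tables give 1 value per gene, so the starts in use were not measured.

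Members also varied together between replicates, which was not particular to them. The pan-neuronal genes read below also summed lower in replicate 2 of each group, at 4322 and 3725 TPM in control and 2665 and 1980 TPM in Isl1cKO. In 10 of 10 members the level was lower in control replicate 2 than in control replicate 1, as in 57.2% of tested genes, with a median log2 difference of -0.20. In 9 of 10 it was lower in Isl1cKO replicate 2 than in Isl1cKO replicate 1, as in 61.5% of tested genes, with a median of -0.22. The median difference between the groups, -0.30, was thus of the order of that between replicates, while Elavl4, Rbpms and Rbfox1 had log2 fold changes of -0.59 or lower. For Rbfox1 this rests on low TPM values that are uncertain, as described above. Both Isl1cKO values lay below both controls in 7 of 10 members and in 30.0% of tested genes.

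Other regulators of RNA gave a wider comparison. Of all tested genes 63.8% were lower, and 8.92% were lower at an unadjusted p-value under 0.05 in limma. Of 20 further splicing regulators 18 were tested, 13 lower and 5 higher, with a median log2 fold change of -0.13, and 0 passed in limma (2 at an unadjusted p-value under 0.05). Those with the smallest p-values were Khdrbs2, Celf5, Celf3 and Mbnl1, with log2 fold changes of -0.34, -0.59, -0.35 and -0.26 and adjusted p-values of 0.285 to 0.508. Celf3, whose protein belongs to the CELF family of neuronal splicing factors, stood at 159 and 145 TPM in control and at 137 and 103 TPM in Isl1cKO. Its groups did not overlap.

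Of 24 regulators of mRNA stability, transport and translation all were tested, 13 lower and 11 higher, against 63.8% of all tested genes lower. The list's median was -0.01, and 0 passed in limma (5 at an unadjusted p-value under 0.05). The list held values in both directions. Cpeb1 had mean levels of 1.27 TPM in control against 2.29 TPM in Isl1cKO, and Lin28a, an mRNA of early progenitors, 5.71 against 11.3 TPM, for log2 fold changes of 0.54 and 0.87 (adjusted p-values 0.134 and 0.183). Cpeb4 and Cpeb2, which encode cytoplasmic polyadenylation element-binding proteins, had log2 fold changes of -0.65 and -0.75 and adjusted p-values of 0.309 and 0.312. Elavl1, the ubiquitous paralog of the neuronal ELAV-like genes, had 60.7 TPM in control against 61.9 TPM in Isl1cKO, with a log2 fold change of 0.03. It was named after its value was seen.

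Of 11 mRNAs known as targets of ELAV-like proteins 10 were tested, 7 lower and 3 higher, against 63.8% of all tested genes lower. The list's median was -0.06, and 0 passed in limma (3 at an unadjusted p-value under 0.05). Gap43, an axonal growth protein whose mRNA is bound by HuD, stood at 877 and 753 TPM in control and at 321 and 224 TPM in Isl1cKO. Its log2 fold change was -1.60 (adjusted p-value 0.0903). Mapt, the gene for tau, had -1.35 and 0.159. The next by p-value was Camk2a, at 0.47 and 0.331.

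**Figure D4:**
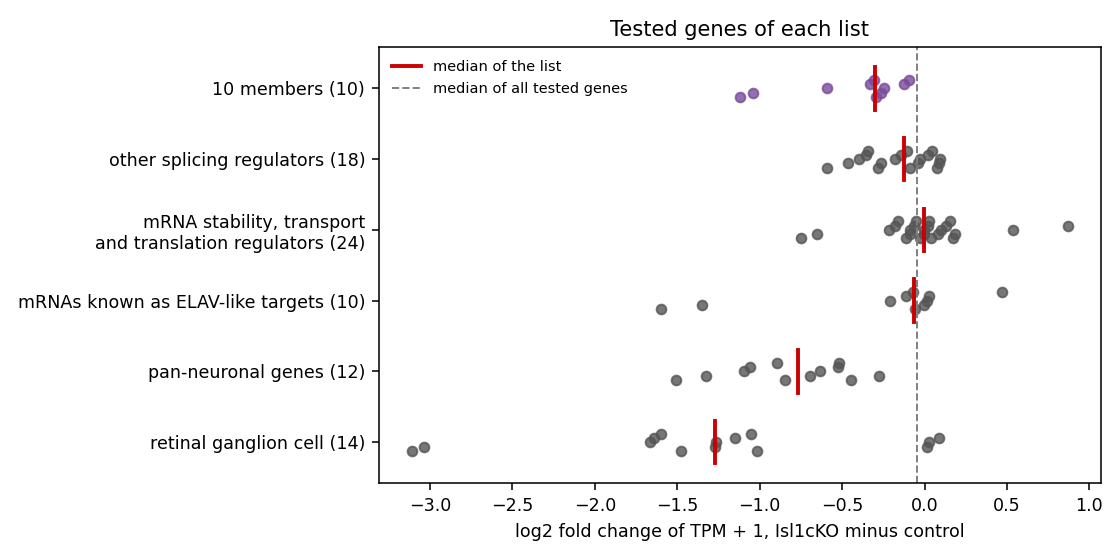
Log2 fold change of TPM + 1 (Isl1cKO minus control) of the tested genes of each list, 1 point per gene and a red bar at the list's median, with the median of all tested genes dashed. Medians lie at -1.27 for retinal ganglion cell genes, -0.77 for pan-neuronal genes, -0.30 for the 10 members and -0.01 for regulators of stability, transport and translation. The members and lists were chosen with earlier results of these data known, so the medians are not an independent comparison.

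Genes of neurons and of ganglion cells were read beside Elavl4 and Rbpms. Both lists were chosen with earlier results of these data known, so their counts and medians are not an independent comparison. Of all tested genes 63.8% were lower, 30.0% were lower without overlap, and 8.92% were lower at an unadjusted p-value under 0.05 in limma. Of 12 pan-neuronal genes 12 were lower, 11 without overlap, with a median of -0.77, and 0 passed (9 at an unadjusted p-value under 0.05). Their summed level was 4322 and 3725 TPM in control and 2665 and 1980 TPM in Isl1cKO. The smallest p-values were those of Nefl (log2 fold change -1.51), Snap25 (-1.33), Ina (-0.90) and Stmn3 (-1.06), with adjusted p-values of 0.145 to 0.211. Of 14 tested retinal ganglion cell genes 11 were lower and 3 higher, with a median of -1.27. Irx3 (-3.11), Nell2 (-3.03) and Irx2 (-1.26) passed and fell, with adjusted p-values of 0.0119, 0.0239 and 0.0249, and Ebf1 (-1.06) did not (0.0829). The 3 higher were Pou4f2 (0.02), Eya2 (0.09) and Chrnb3 (0.02), each with overlapping groups. Pou4f2, a ganglion cell gene of the list, stood at 126 and 124 TPM in control and at 135 and 120 TPM in Isl1cKO. The ganglion cell list, which shares Gap43 with the ELAV target list, summed to 2031 and 1763 TPM in control and to 1010 and 746 TPM in Isl1cKO. In these bulk samples fewer cells of a type and less RNA per cell cannot be told apart, and the part of these markers in the values of Elavl4 and Rbpms was not tested.

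Genes of other cell types were read in the same way, beside the 63.8% of all tested genes that were lower. Of the tested amacrine cell genes 5 of 6 were lower (median -0.51), of photoreceptor precursor genes 6 of 6 (-0.45), of horizontal cell genes 1 of 4 (median 0.17), of retinal progenitor genes 6 of 10 (-0.05) and of neurogenic progenitor genes 2 of 10 (median 0.08). No gene of these 5 lists passed in limma, and 2, 1, 0, 2 and 1 of them in this order had an unadjusted p-value under 0.05. The amacrine list, whose cells are also known to make ELAV-like proteins, summed to 98.7 and 71.3 TPM in control and to 75.7 and 53.6 TPM in Isl1cKO. The summed levels of the groups overlapped.

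Tissues that a dissection can carry over were read too, beside the 63.8% of all tested genes that were lower. Lens genes were lower in 8 of 9 (median -1.20, 7.60 to 11.3 TPM summed in Isl1cKO and 159 to 193 in control), and Crybb3, Crygb, Cryba1 and Cryaa fell past the threshold. Red blood cell genes were lower in 8 of 8 tested (median -2.52), and none passed (4 at an unadjusted p-value under 0.05). Pigment epithelium genes were lower in 6 of 7 tested (median -0.35, 27.7 to 36.9 TPM in Isl1cKO and 38.8 to 45.8 in control), with Rpe65 at 0 in each library. The mesenchyme and muscle list had 4 of 10 genes tested, all lower (median -0.30, 14.5 to 18.9 TPM in Isl1cKO and 19.2 to 25.8 in control). The endothelium list had 2 of 6 tested, both lower (median -0.34, 59.6 to 63.0 and 64.2 to 82.9 TPM). Most of these sums was Kdr alone, at 56.7 and 55.5 TPM in Isl1cKO and 69.0 and 57.0 TPM in control. The microglia list had 7 of 8 higher (median 0.30, 69.6 to 82.6 and 55.2 to 57.0 TPM). The part of these tissues in the members' values was not tested.

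The tested genes nearest in pattern to the member of each family with the largest absolute log2 fold change were found by Euclidean distance between profiles of log2(TPM + 1), centred on the control mean, over the 4 libraries. For Elavl4 they were Igfbpl1, Ttll7 and Ano4, at distances of 0.08, 0.09 and 0.10, where the median distance of all tested genes was 1.55. Igfbpl1 had a mean of 121 TPM in control against 54.3 TPM in Isl1cKO. For Rbpms they were Prkce, Sema4d and Clmp (0.05, 0.05 and 0.06, median 1.44). Sema4d, which encodes a semaphorin, had 28.2 against 13.4 TPM. For Nova2 they were Lix1, Rap1gap and Tmtc2 (0.02, 0.03 and 0.03, median 0.46), and for Rbfox1 they were Lurap1l, Kit and Mlana (0.04, 0.05 and 0.05, median 0.82). With 4 libraries such likeness describes these libraries only, and none of the 12 genes passed in limma, with adjusted p-values from 0.0713 to 0.468.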

How the data were processed

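Per the labels' protocols, RNA of dissected, frozen retinae was poly(A)-selected and made into strand-specific libraries. The submitters' processing notes name Trimmomatic, FastQC, HISAT2, SAMtools, StringTie and DESeq2 and the build mm10, without versions or roles. The annotation, and whether strand was used in counting, are not given in the sources used here, so reads of paralogs and overlapping genes may have been divided in ways the tables do not record. Per the file headers, the authors deposited for each library and gene a mean coverage per base (not scaled to depth), FPKM and TPM. The deposited TPM sum to 1000000 per library. Depth in reads is unknown.

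TPM were summed over repeated rows of a gene ID (171 to 234 IDs per library, no member among them). The 13984 genes with at least 1 TPM in at least 2 libraries were fitted as log2(TPM + 1) in limma (version 3.58.1, R 4.3.3), with a constant variance prior, no term but genotype and Benjamini-Hochberg adjustment at 0.05. Adjusted p-values of genes come from this fit unless a setting is named. Paralog ratios and family sums were tested by exact two-sided permutation (SciPy 1.17.1). The fit was tested on simulated data.

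The members and gene lists were chosen with earlier results of these data known. The genes named were the members, Isl1, the up to 4 tested genes of smallest p-value in the regulator, target, pan-neuronal, ganglion cell and lens lists, and the 3 nearest in pattern. Elavl1, Kdr and the 3 ganglion cell genes that stood higher were named outside this rule, after their values were seen. The other marker lists are given by counts. An item that the rule would name is left out and not reported here. Alternatives covered the pseudocount, unit, scaling, filter, prior, replicate block, repeated rows, sets of genes left out and each replicate left out. Coverage scaled to TPM was added after seeing the data.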

Additional observations from a re-analysis of the deposited data

How the results depend on the processing

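The members passing in limma numbered 0 under 9 of 12 alternatives and with each replicate left out (range 0 to 0). There was 1 with FPKM (Elavl4, adjusted p-value 0.0428) and there were 2, Elavl4 and Rbpms, with a mean-variance trend (0.0271 and 0.0211). With the replicate block there were also 2, Elavl4 and Rbpms (0.0229 and 0.0444). The labels tie no replicate numbers together and the same-numbered deviations correlated at 0.126 over 2 pairs, so the block shares only a number. Over the 12 alternatives the adjusted p-value ran from 0.0229 to 0.250 for Elavl4 and from 0.0211 to 0.193 for Rbpms, with log2 fold changes from -1.13 to -1.05 and from -1.07 to -0.95. Leaving out a library gave -1.32 to -0.92 and -1.17 to -0.91, where the lone library was assumed to vary like the others.

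Genes passing among all tested, 69, numbered 44 at a pseudocount of 0.1, 109 with FPKM, 15 without a filter, 43 without crystallin, haemoglobin and sex-linked genes, 110 with the trend and 265 with the replicate block, and 10 to 37 with 1 library left out. Some signs turned. Elavl2 to Elavl3 (-0.02) was 0.0091 on coverage, and -0.092 to 0.061 with a library left out. Rbfox3 to Rbfox2 (0.03) was -0.044 on coverage, -0.0065 at a pseudocount of 0.1, and -0.033 to 0.099 with a library left out. Rbpms2 ran from -0.25 to 0.058 with a library left out. On coverage Rbfox1 to Rbfox2 was 0.25 and Rbfox1 to Rbfox3 was 0.30. These 2 turns came with 1 added to Rbfox1 values of at most 0.0796, so they do not show another direction for Rbfox1. Where no reason is given, the cause was not tested.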
